A study of Mus musculus with 9 samples.

Results

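The comparison described here is that of the tibia of liraglutide-treated diabetic mice (Lira) with the tibia of saline-treated diabetic mice (T1D). The sample labels placed 3 mice in each of these groups, so that 6 of the 9 RNA-seq libraries of the series were compared, each made from 1 tibia of 1 mouse. All of these mice were female C57BL/6J mice, obtained at 10 to 11 weeks of age and made diabetic with streptozotocin (STZ), which destroys the beta cells of the pancreas. T1D mice then received saline. Lira mice received liraglutide at 0.6 mg/kg/day, for 8 weeks according to the methods of the study and, by its label, for 9 weeks in Lira mouse 3. The remaining 3 libraries came from mice with normal glucose tolerance (NGT), which had received neither STZ nor liraglutide. They entered the fit and are quoted only as a reference level. STZ removes beta cells chemically, so these mice model insulin lack and not the autoimmune disease, and no insulin was given to the mice of either group.

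Liraglutide is a long-acting analog of the gut hormone GLP-1. It binds the GLP-1 receptor, which raises cyclic AMP in beta cells and favours insulin secretion when glucose is high. Insulin directs muscle and fat towards glucose uptake, glycogen storage and lipid synthesis. When insulin is lacking, FoxO transcription factors, glucocorticoids and the fatty acid sensor PPARα favour fat oxidation, ketone use and protein breakdown. A whole tibia contains osteoblasts, osteocytes, osteoclasts, cartilage, blood-forming marrow, fat, vessels, nerve and remnants of attached muscle and tendon, and a bulk library adds up the RNA of all of them.

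The 6 libraries held between 14166824 and 16528394 counts. Levels are given as CPM, the counts scaled to the TMM-adjusted total of the tested genes in a library. A gene with 0 counts may still have had a level of up to 3 counts, which is 0.163 to 0.234 CPM in these libraries, and this limit covers counting error only. Markers checked the labelled tissue in a mixed way. Genes of osteoblasts were present and took between 0.0868 and 0.966% of the counts of these libraries, whereas 22 genes of fast skeletal muscle fibers took between 14.9 and 29.9%, although the methods describe bones cleaned of muscle. In such bulk samples fewer cells of a type and less RNA per cell cannot be told apart. T1D mouse 1 and Lira mouse 3 stood apart from the other libraries. The number of genes above 2 times their level in each of the other 5 libraries was 673 in T1D mouse 1 and 627 in Lira mouse 3. The other 4 libraries had between 18 and 97 such genes. Lira mouse 2 had 437 genes below 0.5 times their level in each other library, against 57 to 134 in the other libraries. Many results below are therefore given also without single libraries, as refits of the same model.

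Of the 18272 genes in the table, 13960 passed the filter on low counts and were tested. Of these, 0 (0%) passed the thresholds for differentially expressed genes (DEGs), an adjusted p under 0.05 and a fold change over 2, and the lowest adjusted p in edgeR's quasi-likelihood test (Benjamini-Hochberg) was 0.978. Therefore no gene below is said to have risen or fallen, and differences are described by their values. DESeq2 called 1 gene (0.00716%), *Gpm6b*. An unadjusted p under 0.05 was reached by 465 genes (3.33%), 216 of them higher (1.55%) and 249 lower (1.78%) in Lira mice. In 996 genes (7.13%) the 3 Lira and the 3 T1D values did not overlap, all Lira values being higher in 522 genes (3.74%) and lower in 474 (3.40%). At these shares 1 member without overlap in a list of 20 to 30 genes is near the background, and single separations below are descriptions. The median log2 fold change (Lira minus T1D) of all tested genes was 0.04. Of all tested genes 55.3% were higher and 44.7% lower in Lira mice, and the medians and counts of gene groups below are to be read against these values.

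The direction of the difference in single genes often rested on 1 mouse. With each of the 6 libraries left out in turn, 6139 genes (44.0%) kept their direction in all 6 refits. Leaving out T1D mouse 1 turned the direction of 3242 genes (23.2%) and leaving out Lira mouse 3 that of 2829 genes (20.3%), whereas leaving out T1D mouse 3 turned 1467. Of the 465 genes with an unadjusted p under 0.05, 457 kept their direction in all 6 refits, but only 48 (0.344% of the genes tested) kept that p in every refit, 23 of them higher and 25 lower in Lira mice. No refit called a DEG, and the lowest adjusted p of the refits was 0.168, without T1D mouse 3 (edgeR, quasi-likelihood test, Benjamini-Hochberg). The 16 genes described next are the 8 with the lowest p in each direction among genes of at least 5 CPM whose groups did not overlap, and all 16 are among those 48.

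**Figure D1:**
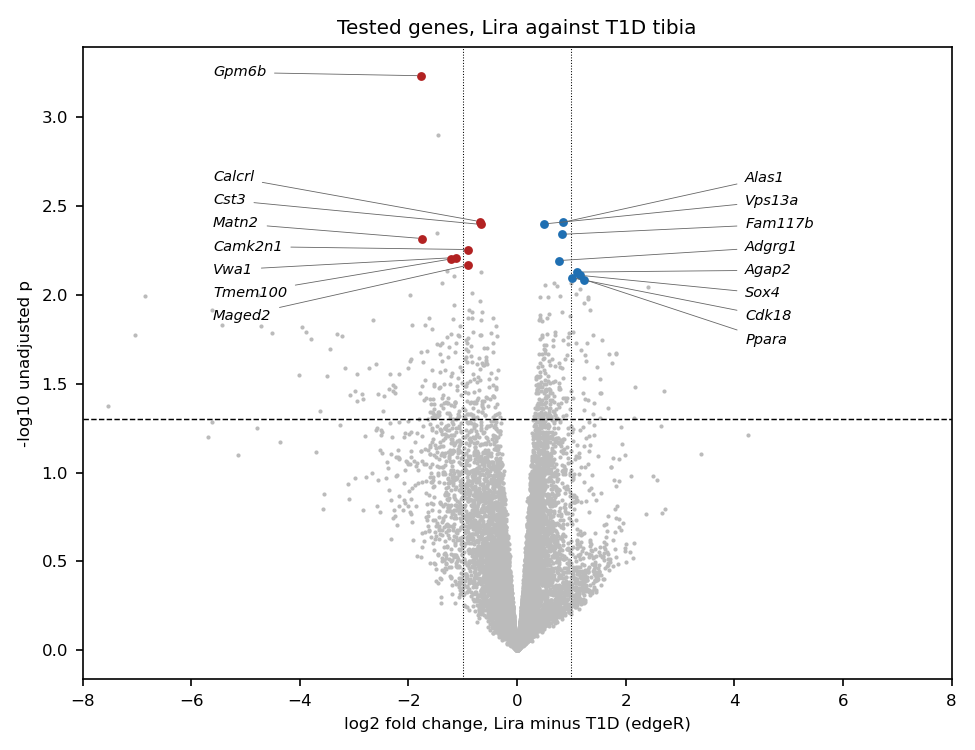
Log2 fold change (x axis, Lira minus T1D) and -log10 of the unadjusted p (y axis) of the 13960 tested genes, from edgeR's fit of all libraries. Each point is a gene, the 8 named genes lower and the 8 higher in Lira mice are colored red and blue, the dashed line marks an unadjusted p of 0.05 and the dotted lines a 2-fold change. *Gpm6b* lies highest, and 0 genes passed after adjustment.

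The 8 genes lower in Lira mice come first. *Gpm6b* (gene ID 14758, and likewise for the genes below), which encodes a membrane proteolipid of neurons and glia that osteoblasts also make, was at 27.3, 22.6 and 10.3 CPM in T1D mice and 5.5, 6.39 and 5.85 CPM in Lira mice. All T1D mice lay above all Lira mice, with T1D mouse 3 closest to them, and NGT mice were at 6.16 to 7.19 CPM. Its log2 fold change was -1.76 (SE 0.33), and leaving out single libraries gave values from -2.08 to -1.48. Its adjusted p was 0.978 in edgeR's quasi-likelihood test and 0.0367 in DESeq2 (both Benjamini-Hochberg). *Matn2* (17181), a matrilin of the extracellular matrix that Schwann cells secrete, was at 19.8, 12.6 and 5.4 CPM in T1D mice and 3.43, 4.28 and 3.56 CPM in Lira mice. The Lira values lay within 1 CPM of each other, while T1D mouse 1 stood far above T1D mouse 3, and the log2 fold change was -1.75 (SE 0.46). *Vwa1* (246228), a matrix protein of cartilage and peripheral nerve, was at 12.6, 21.9 and 15 CPM in T1D mice and 4.92, 10.1 and 7.58 CPM in Lira mice and differed by -1.13 (SE 0.31) on the log2 scale.

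The other 5 genes lower in Lira mice include a vascular receptor and secreted and membrane proteins. *Calcrl* (54598) encodes the receptor that pairs with RAMP proteins to bind CGRP and adrenomedullin, and it was at 23.1, 25.9 and 25.9 CPM in T1D mice and 14.3, 18.6 and 13.8 CPM in Lira mice. The T1D mice differed by less than the gap to the highest Lira mouse, and the log2 fold change was -0.68 (SE 0.17). *Cst3* (13010), the secreted cysteine protease inhibitor cystatin C, was at 376, 379 and 304 CPM in T1D mice and 241, 216 and 209 CPM in Lira mice (log2 fold change -0.67, SE 0.17). *Camk2n1* (66259), an inhibitor of the kinase CaMKII, was at 23, 27.4 and 23.3 CPM in T1D mice and 17.9, 11.9 and 9.82 CPM in Lira mice (-0.90, SE 0.24). *Maged2*, *Tmem100* and *Camk2n1* showed the same separation, the lowest T1D mouse lying above the highest Lira mouse. *Tmem100* (67888), an endothelial target of BMP signaling, was at 27, 60.6 and 29.5 CPM in T1D mice and 21, 13.2 and 16.4 CPM in Lira mice (-1.21, SE 0.34), with T1D mouse 2 highest and a value of -0.75 without it. *Maged2* (80884), which encodes a MAGE family protein, was at 16.9, 13.4 and 13.5 CPM in T1D mice and 5.85, 8.26 and 9.18 CPM in Lira mice (-0.91, SE 0.26).

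The 8 genes higher in Lira mice follow. *Alas1* (11655), the enzyme that starts heme synthesis in non-erythroid cells, was at 65.3, 66.2 and 72.2 CPM in T1D mice and 110.0, 166 and 91.2 CPM in Lira mice. Its log2 fold change was 0.85 (SE 0.22), and the refits gave 0.57 to 1.02. *Ppara* (19013), the nuclear receptor that switches on fatty acid oxidation and ketone body metabolism, was at 15.9, 22.2 and 13.8 CPM in T1D mice and 48.2, 51.7 and 22.3 CPM in Lira mice. Lira mice 1 and 2 stood well above the T1D mice, whereas Lira mouse 3 was almost level with T1D mouse 2. The log2 fold change was 1.24 (SE 0.36, 1.03 to 1.53 in the refits). *Vps13a* (271564), a lipid transfer protein at contacts between organelles, was at 23.8, 26.8 and 26.8 CPM in T1D mice and 36.8, 36.8 and 35.5 CPM in Lira mice. This was the smallest difference of the 16 genes on the log2 scale, 0.49 (SE 0.13), with little spread between mice of a group.

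For the other 5 genes higher in Lira mice the groups were parted as well. *Adgrg1* (14766), an adhesion G protein-coupled receptor, was at 29.2, 36.5 and 46.3 CPM in T1D mice and 64.6, 58.5 and 68.4 CPM in Lira mice (log2 fold change 0.77, SE 0.22). *Sox4* (20677), a transcription factor of progenitor cells, was at 14, 7.53 and 7.2 CPM in T1D mice and 27.5, 19.5 and 17.3 CPM in Lira mice (1.16, SE 0.34). T1D mouse 1 was the highest T1D mouse for *Sox4* and still below every Lira mouse. *Cdk18* (18557), a cyclin-dependent kinase, was at 5.16, 4.91 and 7.27 CPM in T1D mice and 11.1, 15.6 and 8.32 CPM in Lira mice (1.01, SE 0.30). *Agap2* (216439), an Arf GTPase-activating protein, was at 3.26, 4.78 and 4.07 CPM in T1D mice and 8.92, 6.31 and 10.7 CPM in Lira mice (1.10, SE 0.32), and *Fam117b* (72750) at 15.7, 13.9 and 18.2 CPM in T1D mice and 32, 25.8 and 27 CPM in Lira mice (0.83, SE 0.22). The 16 genes were chosen for groups that did not overlap, so their separation is a description.

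**Figure D2:**
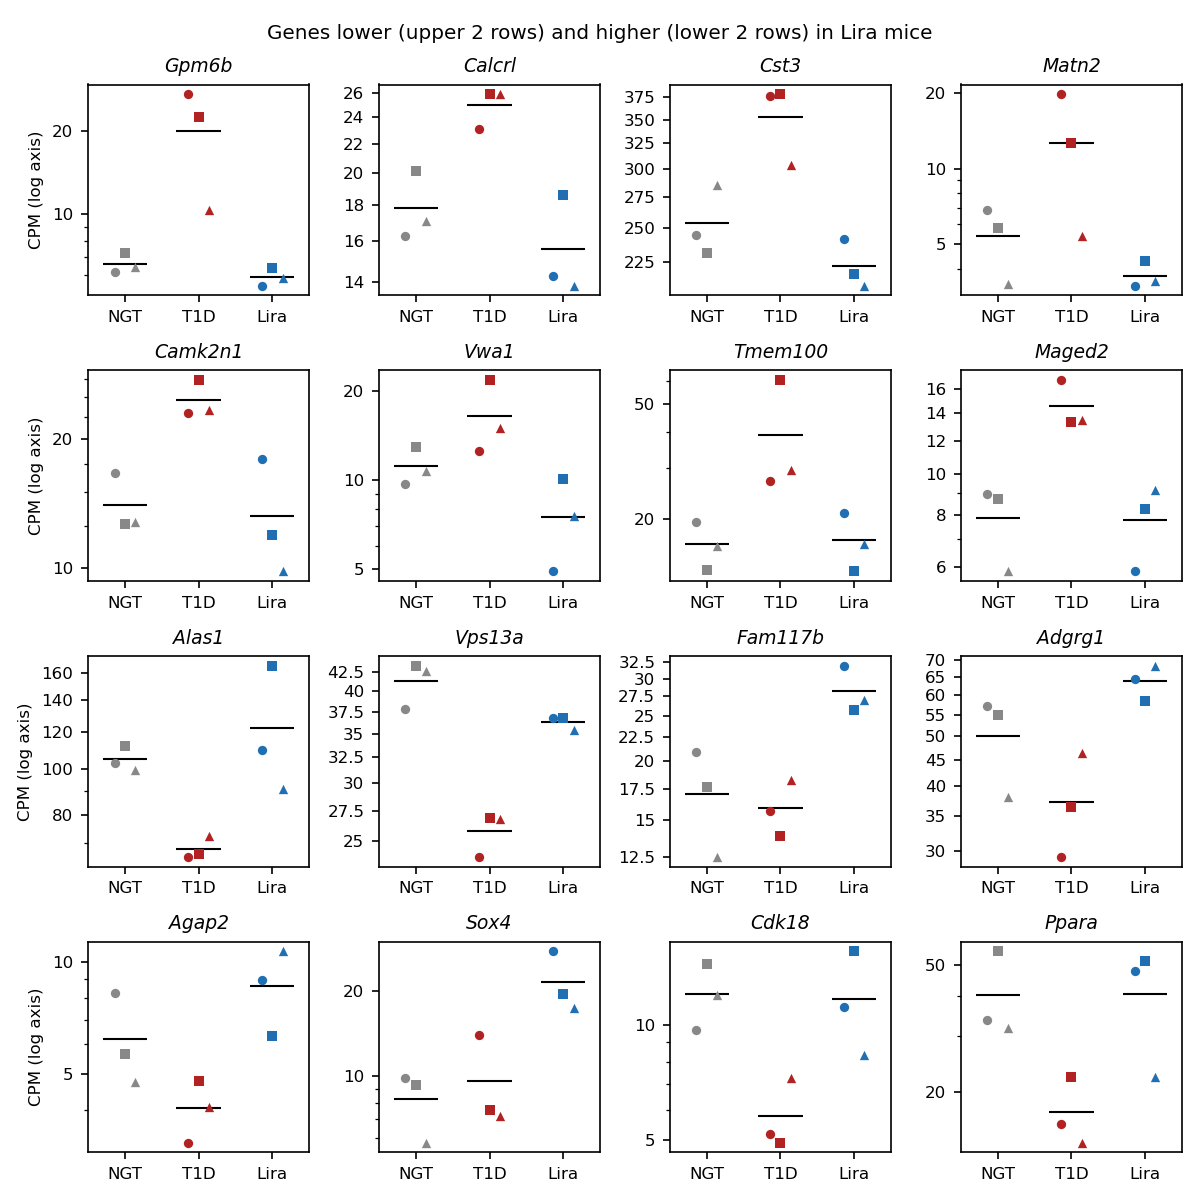
Level of the 16 genes with the lowest p in each direction, as CPM on a log axis (y) by group (x). Circles, squares and triangles are mice 1, 2 and 3, and the line is the group mean. Every Lira mouse lies below every T1D mouse in the upper 8 panels and above every T1D mouse in the lower 8.

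Genes of ketone use and PPARα were among the metabolic genes that leaned higher in Lira mice. In the list of PPAR targets and ketone metabolism, 16 of 21 tested members were higher, with a median log2 fold change of 0.22 that stayed between 0.11 and 0.42 in the refits. Both members with an unadjusted p under 0.05, *Ppara* and *Oxct1*, also had no overlap between the groups (9.52% of the list, against 3.74% of all tested genes). *Oxct1* (67041), the enzyme by which muscle activates ketone bodies for oxidation, was at 299, 301 and 220.0 CPM in T1D mice and 392, 634 and 302 CPM in Lira mice. Lira mouse 2 was highest, and the lowest Lira and the highest T1D mouse were almost level, with a log2 fold change of 0.70 (SE 0.30), which was 0.35 without Lira mouse 2. *Pdk4* (27273), a kinase that shuts off pyruvate entry into the tricarboxylic acid cycle in fasting, was at 297, 1073 and 2254 CPM in T1D mice and 6029, 862 and 1296 CPM in Lira mice. Only Lira mouse 1 exceeded all T1D mice, and without it the log2 fold change of *Pdk4* turned from 1.18 to -0.16. *Fabp3* (14077), the fatty acid carrier of muscle, was at -0.20 on that scale, with the refits on both sides of 0.

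The tricarboxylic acid cycle leaned higher as a whole but by little in each gene. All 25 of 25 tested genes of the cycle and pyruvate dehydrogenase were higher in Lira mice, with a median of 0.36, while none reached an unadjusted p under 0.05 or had groups without overlap. *Mdh2* (17448), the malate dehydrogenase of mitochondria, was at 461, 554 and 514 CPM in T1D mice and 707, 994 and 486 CPM in Lira mice. Lira mice 1 and 2 were above every T1D mouse and Lira mouse 3 lay among the T1D mice, and the log2 fold change of 0.52 was 0.23 without Lira mouse 2. The median stayed above 0 in all 6 refits (0.07 to 0.55) and was lowest without Lira mouse 2. Oxidative phosphorylation followed with 61 of 75 subunits higher and a median of 0.12, which turned to -0.09 without Lira mouse 2. Its most abundant members, *Atp5b* and *Cox6a2*, were at 0.39 and 0.14, and at 0.14 and -0.12 without that mouse. Fatty acid oxidation had 20 of 27 members higher and a median of 0.13, which also turned without Lira mouse 2, to -0.07. Its most abundant members, *Acadl* (-0.18) and *Hadhb* (-0.01), were both slightly lower in Lira mice. Catabolism of branched-chain amino acids had 18 of 19 genes higher (median 0.24, refits 0.05 to 0.42), with *Aldh6a1* at 0.14 and *Hibadh* at 0.04.

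Muscle markers differed between the libraries. Fast fiber genes took 14.9, 25.9 and 29.9% of the counts in T1D mice and 26.6, 25.9 and 19.8% in Lira mice, and genes of slow and oxidative fibers took 2.46, 1.14 and 0.796% of the counts in T1D mice and 1.21, 1.72 and 1.62% in Lira mice. Lira mouse 2 was highest of the 6 mice for the tricarboxylic acid cycle list, at a level of 8.92 (the mean log2(CPM + 1) of the list), against 7.93 to 8.46 in the other 5. The part of muscle content in the metabolic differences was not tested. Of the fiber genes, 1 of the slow and oxidative list (5.56%) and 0 of the fast list had no overlap between the groups, against 3.74% of all tested genes. *Myh2* (17882), the myosin of fast oxidative type IIA fibers, was at 1407, 1702 and 1060.0 CPM in T1D mice and 3921, 5826 and 2557 CPM in Lira mice, a log2 fold change of 1.56 (SE 0.54, 1.22 to 1.81 in the refits). Every Lira mouse was above every T1D mouse, while NGT mice ranged from 1363 to 5668 CPM across both groups. The slow and oxidative list as a whole had 8 of 18 members higher and a median of -0.06, which was 0.51 without T1D mouse 1 and -0.34 without T1D mouse 2. The fast list had 12 of 22 members higher and a median of 0.06, which was -0.24 without T1D mouse 1 and 0.41 without T1D mouse 3. The oxygen store myoglobin, *Mb* (17189), was at 2770.1, 1515 and 475 CPM in T1D mice and 2074, 3699.9 and 1759 CPM in Lira mice, and the most abundant fast fiber genes *Acta1* (-0.02) and *Tnnt3* (0.05) were near 0 on the log2 scale.

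In the glycogen list 1 member had no overlap between the groups (4.76%, near the 3.74% of all tested genes). *Ppp1r3c* (53412), which targets protein phosphatase 1 to glycogen and activates glycogen synthase, was at 573, 973 and 566 CPM in T1D mice and 1828, 1407 and 979 CPM in Lira mice. T1D mouse 2 and Lira mouse 3 were almost level, and the log2 fold change was 1.00 (SE 0.45, 0.76 to 1.29 in the refits). The glycogen list had 14 of 21 members higher (66.7%, against 55.3% of all tested genes) and a median of 0.20 (0.06 to 0.33 in the refits), and 1 member, glycogen synthase *Gys1*, reached an unadjusted p under 0.05 (4.76%, against 1.55% of all tested genes). *Pygm* (19309), the glycogen phosphorylase of muscle, was at 4106, 7332 and 10695 CPM in T1D mice and 10735, 9464 and 5884 CPM in Lira mice. Glycolysis had 16 of 24 members higher and a median of 0.11 (0.02 to 0.30), with *Gapdh* at 0.05 and *Aldoa* at 0.08. As with the fast fiber share, T1D mouse 1 and Lira mouse 3 were lowest in their groups for *Pygm*, *Aldoa* and *Gapdh*, and the part of muscle in this was not tested. *Slc2a4* (20528), the insulin-regulated glucose transporter GLUT4, was at 423, 536 and 326 CPM in T1D mice and 745, 814 and 449 CPM in Lira mice. Lira mice 1 and 2 were above all T1D mice and Lira mouse 3 lay among them, for a log2 fold change of 0.64 (SE 0.30) and of 0.48 to 0.86 in the refits. *Txnip* (56338), a glucose-induced inhibitor of glucose uptake, was at 485, 1105 and 1179 CPM in T1D mice and 2064, 1183 and 833 CPM in Lira mice, with T1D mouse 1 lowest.

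Within the list of glucose uptake and insulin signaling, 18 of 31 members were higher (median 0.06, refits -0.09 to 0.13). *Igf1* (16000), a growth factor related to insulin, was at 88.2, 22.3 and 19.1 CPM in T1D mice and 7.42, 17.9 and 17.5 CPM in Lira mice, so that T1D mouse 1 set most of its log2 fold change of -1.60 (SE 0.66), which was -0.53 without this mouse. *Igfbp4* (16010), an IGF-binding protein, was at 169.8, 90.6 and 90.6 CPM in T1D mice and 87.7, 53.4 and 68.9 CPM in Lira mice. T1D mice 2 and 3 and Lira mouse 1 were almost level. *Foxo1* (56458), which insulin normally keeps out of the nucleus, was at 46.4, 53.5 and 55.7 CPM in T1D mice and 293, 65.4 and 70.9 CPM in Lira mice. All Lira mice were above all T1D mice, but Lira mouse 1 stood alone, and without it the log2 fold change was 0.39 in place of 1.46 (SE 0.54). *Insr*, the insulin receptor, was at 0.26 on this scale.

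Lira mouse 1 also stood alone for genes of muscle protein breakdown and of the glucocorticoid response. *Trim63* (433766), the ubiquitin ligase MuRF1 of muscle atrophy, was at 148, 274 and 442 CPM in T1D mice and 2560.4, 363 and 315 CPM in Lira mice. Only Lira mouse 1 was above the T1D range, and its removal took the log2 fold change from 1.91 (SE 0.86) to 0.24. *Fkbp5* (14229), a glucocorticoid-induced chaperone of the glucocorticoid receptor, was at 71.8, 113 and 74.4 CPM in T1D mice and 363, 128 and 115 CPM in Lira mice. Here the groups did not overlap, yet Lira mice 2 and 3 exceeded T1D mouse 2 by little, and the log2 fold change went from 1.22 (SE 0.47) to 0.49 without Lira mouse 1. The metallothionein *Mt1* (17748), at 138, 40.2 and 69.6 CPM in T1D mice and 262, 71.2 and 78.3 CPM in Lira mice, changed its direction without that mouse (-0.15). The glucocorticoid and metallothionein list had 15 of 20 members higher and a median of 0.37, which turned to -0.13 without Lira mouse 1. The list of atrophy and FoxO targets had 15 of 20 higher and a median of 0.22, which turned to -0.09. Its most abundant members besides *Trim63* included *Sqstm1*, an autophagy receptor, at 0.14, and *Klhl38* was its only member with an unadjusted p under 0.05 (1 of 20, against 1.55% of all tested genes).

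The share of immediate-early genes without overlap, 3.7% higher and 3.7% lower, was near that of all tested genes (3.74% and 3.40%). *Btg2* (12227), an antiproliferative immediate-early gene, was at 38.1, 39.9 and 32 CPM in T1D mice and 154, 40.7 and 85.8 CPM in Lira mice, with Lira mouse 2 only just above the highest T1D mouse (log2 fold change 1.35, SE 0.43, 0.79 without Lira mouse 1). *Ier3* of the same list was lower in every Lira mouse by a small margin (-0.19), *Dusp1* was at -0.20, and the orphan receptor *Nr4a1* at -0.30. The AP-1 and immediate-early list as a whole had a median of 0.03, refits -0.17 to 0.22 (15 of 27 higher). *Nfil3* (18030), a repressor in the output of the clock, was at 66.5, 78.9 and 34.7 CPM in T1D mice and 127, 139 and 79.7 CPM in Lira mice, with T1D mouse 2 and Lira mouse 3 almost level (0.94, SE 0.33). Among the other clock genes *Nr1d1* had a log2 fold change of -0.05, and the list had 13 of 20 members lower and a median of -0.24 (-0.41 to 0.16 in the refits). In the integrated stress response, 14 of 20 genes were higher (median 0.18, -0.07 without Lira mouse 3). The stress sensor *Sesn2* (0.38, 0.19 without Lira mouse 3) and the proline enzyme *Pycr1* (-0.61) had no overlap in opposite directions, and the transcription factors *Atf4* (0.05) and *Atf5* (-0.12) overlapped. Heat shock proteins and chaperones had a median of -0.11 that turned to 0.27 without T1D mouse 1, where the small heat shock gene *Cryab* (12955) stood at 2574 CPM against 722 and 577 CPM in the other T1D mice and 998, 1152 and 811 CPM in Lira mice. *Hspb6* was at 0.19 on the log2 scale.

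The direction of the lipid synthesis genes depended on 1 mouse. *Scd1* (20249), which makes monounsaturated fatty acids under the control of insulin and SREBP-1c, was at 1117, 184 and 14.4 CPM in T1D mice and 306, 281 and 492 CPM in Lira mice. T1D mouse 1 was far above the other diabetic mice and T1D mouse 3 far below, so that the log2 fold change was -0.29 (SE 1.32) with all libraries and 1.86 without T1D mouse 1. *Me1* (17436), malic enzyme, which supplies NADPH for fatty acid synthesis, was at 559, 403 and 380.1 CPM in T1D mice and 321, 369 and 313 CPM in Lira mice. It was lower in every Lira mouse, and remained so in each refit (-0.53 to -0.23). In the list of fatty acid and triglyceride synthesis 15 of 23 members were lower, and the median was -0.29 with all libraries and 0.77 without T1D mouse 1. The mean log2(CPM + 1) of adipocyte genes, 5.84 ± 0.57 for T1D (SD, n = 3) and 5.51 ± 0.30 for Lira (SD, n = 3), was 6.48 in T1D mouse 1 and 5.26 to 5.84 in the other T1D and Lira mice, whereas these genes took 1.00, 1.04 and 0.998% of the counts in T1D mice and 0.854, 0.765 and 0.653% in Lira mice, so that T1D mouse 1 was not highest by share. Their part in these values was not tested. Cholesterol synthesis had 18 of 24 members lower and a median of -0.16, which was 0.08 without that mouse, and its most abundant members *Fdft1* (0.00) and *Fdps* (0.02) were near 0.

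Genes that deal with excess glucose and with oxidants leaned in no one direction. In the list of polyol and glycation genes 6 of 12 were higher and the median was 0.00029, or -0.15 without T1D mouse 1 and 0.16 without T1D mouse 3. The 2 members with an unadjusted p under 0.05 (16.7%, against 1.78% of all tested genes) were both lower and had no overlap. *Gfpt2* (14584), an enzyme of the first step of the hexosamine pathway, was at 35.2, 15.5 and 14.5 CPM in T1D mice and 12.3, 8.64 and 7.06 CPM in Lira mice (log2 fold change -1.22, SE 0.41, -0.68 without T1D mouse 1). *Akr1b8* (14187), an aldo-keto reductase, was at 11.6, 2.23 and 2.6 CPM in T1D mice and 1.5, 1.64 and 1.95 CPM in Lira mice, and T1D mouse 1 set most of its value of -1.69 (SE 0.65), which was -0.51 without it. Aldose reductase itself, *Akr1b3*, was at -0.15 and the deglycase *Park7* at 0.01. Of the antioxidant enzymes, *Gpx4* (625249), which protects membranes from lipid peroxides, was at 285, 304 and 319 CPM in T1D mice and 225, 271 and 247 CPM in Lira mice. Its groups did not overlap, and its log2 fold change was -0.29 (SE 0.15). *Gpx3* was at -0.77, or -0.50 without Lira mouse 3, and the list had a median of 0.11, or -0.05 without that mouse, with 17 of 28 members higher.

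Cytosolic ribosomal protein genes were lower in Lira mice by small and even amounts. Of 82 tested genes, 80 were lower in Lira mice and 79 kept their direction in all 6 refits. The median was -0.33 with all libraries and between -0.49 and -0.24 in the refits. In 16 genes (19.5%, against 3.40% of all tested genes) every Lira mouse was below every T1D mouse, and 7 (8.54%, against 1.78%) had an unadjusted p under 0.05. *Rpl30* (19946) of the large subunit was at 194, 192 and 211 CPM in T1D mice and 143, 136 and 163 CPM in Lira mice (log2 fold change -0.44, SE 0.15). The abundant members *Rps2* and *Rps24*, of the small subunit, were at -0.26 and -0.37. The list took 2.69, 2.01 and 2.26% of the counts in T1D mice and 1.55, 1.43 and 2.36% in Lira mice, so Lira mouse 3 lay among the T1D mice, and the mean levels did not separate the groups, at 7.73 ± 0.16 for T1D (SD, n = 3) and 7.41 ± 0.23 for Lira (SD, n = 3). Ribosomal protein genes have many near-identical processed copies in the genome, and how reads were divided between them is not given in the sources used here. Proteasome subunits were split evenly, with 21 of 42 higher, a median of -0.01 (refits -0.06 to 0.06), *Psmb7* at -0.03 and *Psmd8* at -0.24.

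**Figure D3:**
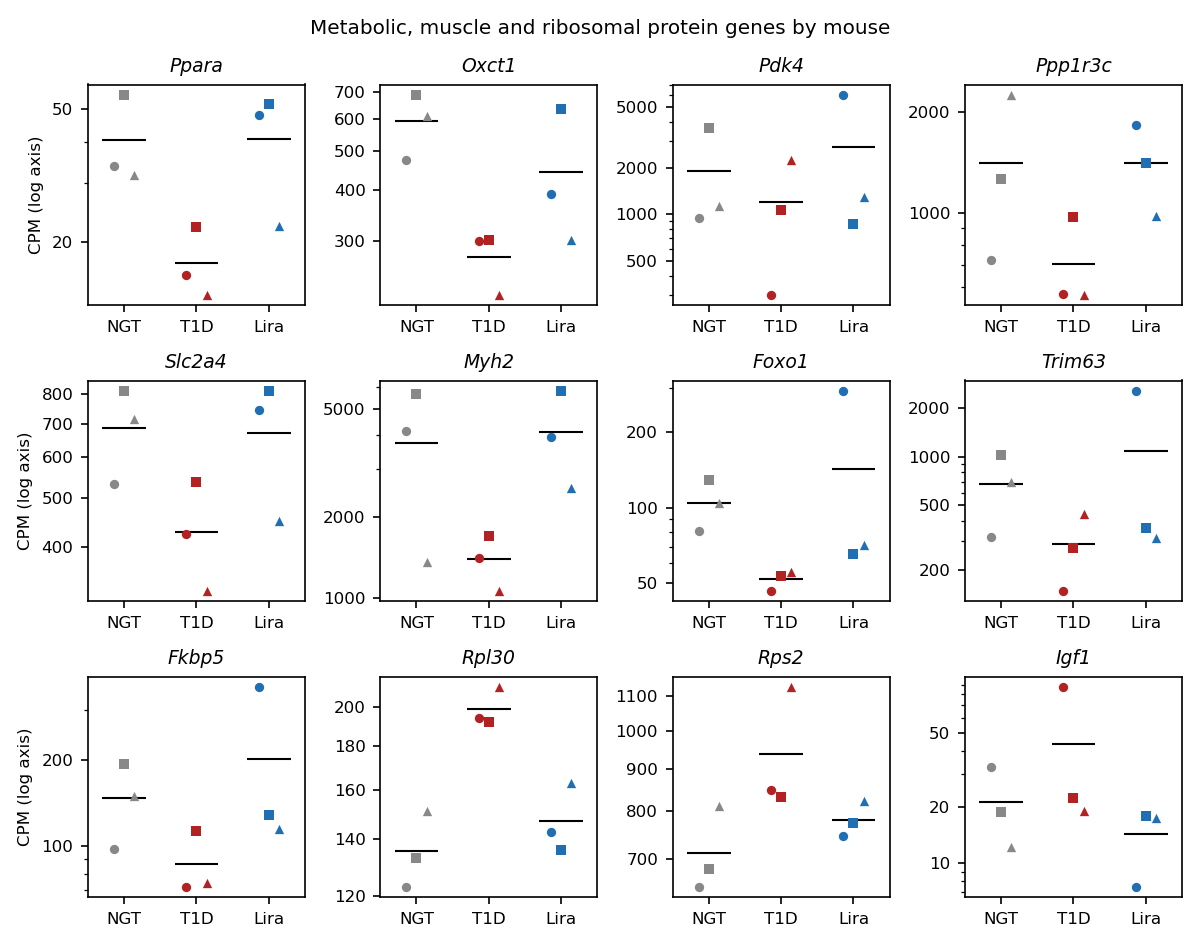
Level of 12 genes of metabolism, muscle, protein breakdown and the ribosome as CPM on a log axis (y) by group (x). Circles, squares and triangles are mice 1, 2 and 3, and the line is the group mean. *Myh2* and *Rpl30* part the T1D and Lira mice, and Lira mouse 1 stands alone for *Foxo1*, *Trim63*, *Fkbp5* and *Pdk4*.

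Of the 50 gene lists described, 12 kept the sign of their median in all 6 refits, namely glycolysis, glycogen, PPAR targets and ketone metabolism, the tricarboxylic acid cycle, branched-chain amino acid catabolism, cytosolic ribosomal proteins, neuromuscular junction, fibroblasts, adipocytes, Schwann cells, CXCL12-abundant stromal cells and chemokines. The other 38 changed it in at least 1 refit. Leaving out T1D mouse 1 changed the sign of 20 lists, Lira mouse 3 of 11, Lira mouse 1 of 8, Lira mouse 2 of 7, T1D mouse 2 of 3 and T1D mouse 3 of 2. In some lists that kept it, 1 mouse still set the size, as with fibroblasts and adipocytes (T1D mouse 1) and Schwann cells (T1D mouse 2).

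**Figure D4:**
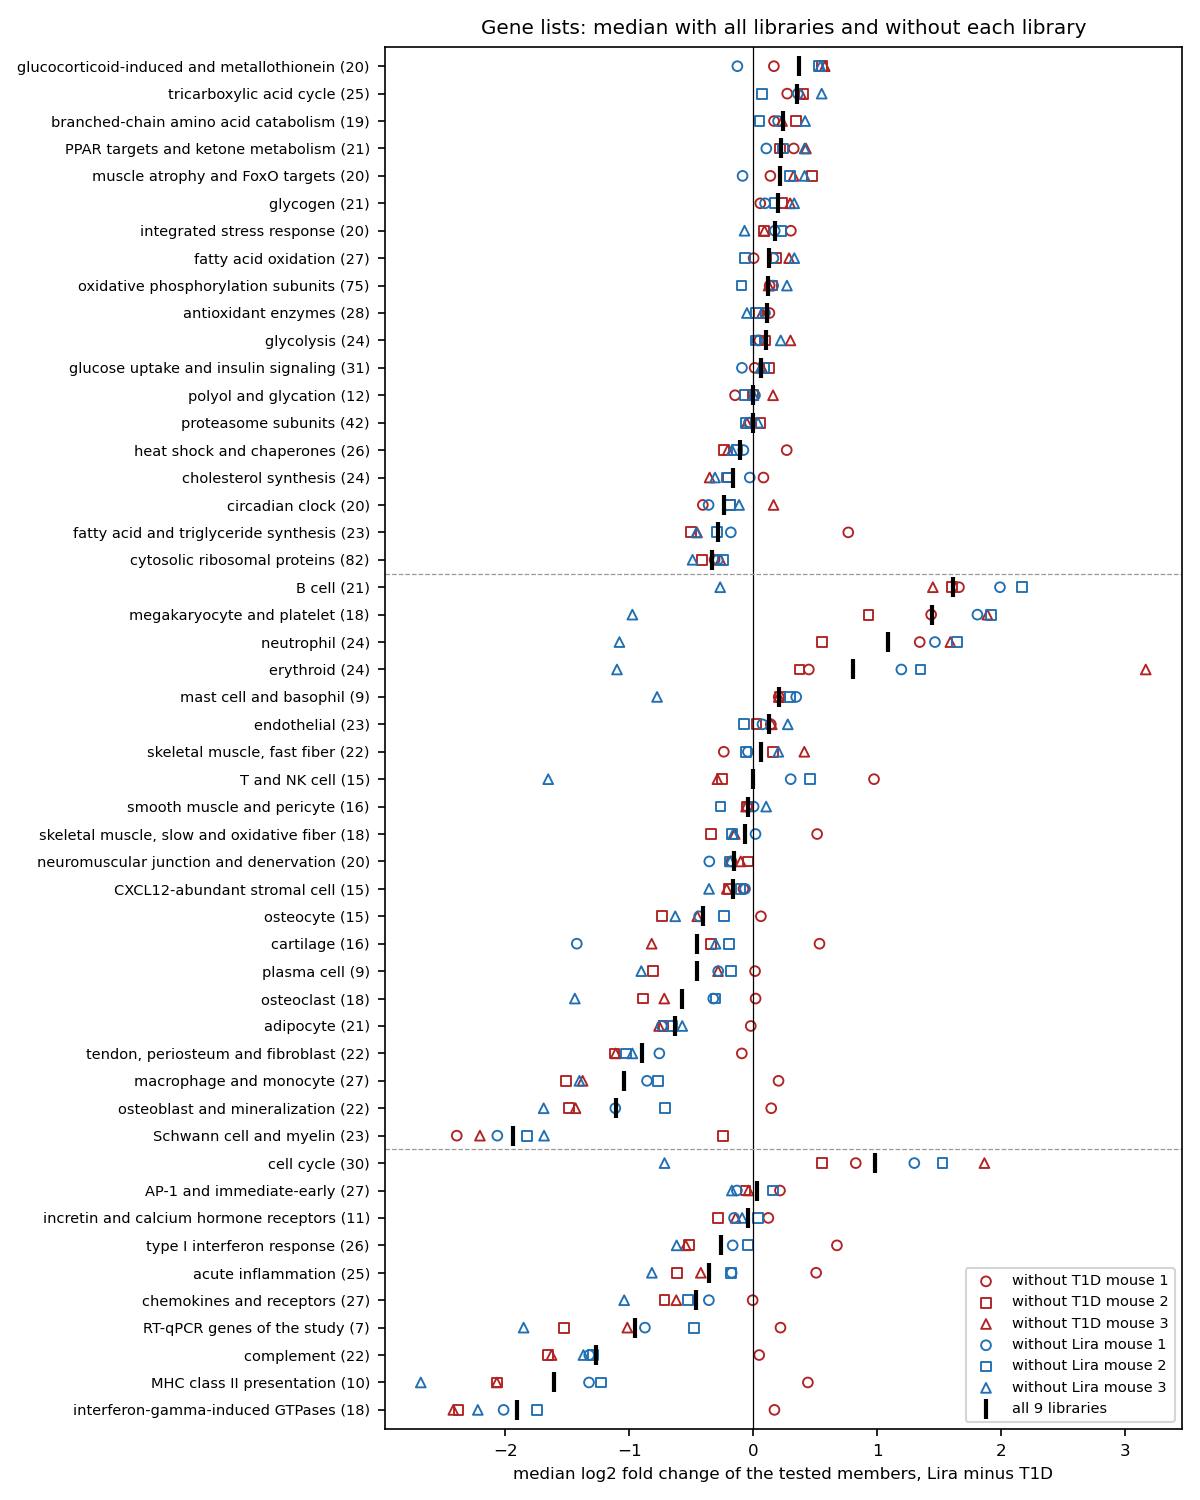
Median log2 fold change (x axis, Lira minus T1D) of the tested members of the 50 gene lists (y axis, number of tested members in parentheses), metabolic lists on top, tissue lists in the middle and signaling lists at the bottom. Black ticks are medians with all 9 libraries and open symbols are refits without 1 library, red for a T1D and blue for a Lira mouse. The red circles (without T1D mouse 1) lie near 0 or above in the bone, macrophage and interferon lists, and the blue triangles (without Lira mouse 3) lie below 0 in the erythroid, neutrophil, B cell and megakaryocyte lists.

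Genes induced by interferon-gamma were high in T1D mouse 1 alone. The immunity-related and guanylate-binding GTPases are induced by interferon-gamma and defend cells against microbes within vacuoles. *Igtp* (16145) was at 405, 15.8 and 14.3 CPM in T1D mice and 10.8, 15.6 and 28.4 CPM in Lira mice, and *Iigp1* (60440) at 443, 15.3 and 9.67 CPM in T1D mice and 9.28, 11.8 and 12.7 CPM in Lira mice. In both genes T1D mouse 1 lay more than 10 times above every other mouse, the other T1D mice were at or close to the levels of Lira mice, and NGT mice were at 19.6 to 20.8 and 9.02 to 12.1 CPM. All 18 of 18 GTPases were lower in Lira mice and 6 had an unadjusted p under 0.05 (33.3%, against 1.78% of all tested genes), but none parted the groups. The median of -1.90 became 0.17 without T1D mouse 1. Since these genes moved together in 1 mouse, their promoters were read. Of the 18 genes, 10 had a promoter in the RefSeq table used here (GRCm38.p6, from 250 bases before to 50 after the start), and 2 short motifs were searched on both strands. One was a pair of GAAA runs with any 2 bases between them, a core of the interferon-stimulated response element. The other was TTC and GAA with any 3 bases between them, the core of the STAT-binding GAS element. The first was found in 9 of 10 and in 3.743% of 11033 tested genes with a promoter, the second in 6 of 10 and in 8.275%. All 6 genes with the second motif also held the first. The promoters of 3 of these, *Igtp*, *Irgm2* and *Gbp7*, are shown as examples, with both motifs in capitals.
*Igtp*, chr11:58199306-58199605, plus strand: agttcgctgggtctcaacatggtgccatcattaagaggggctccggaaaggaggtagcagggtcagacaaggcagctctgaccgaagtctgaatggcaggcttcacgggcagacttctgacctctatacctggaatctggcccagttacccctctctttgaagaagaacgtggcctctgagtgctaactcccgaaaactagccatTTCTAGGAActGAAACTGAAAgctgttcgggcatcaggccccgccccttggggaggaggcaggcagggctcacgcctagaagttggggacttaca
*Irgm2*, chr11:58214727-58215026, plus strand: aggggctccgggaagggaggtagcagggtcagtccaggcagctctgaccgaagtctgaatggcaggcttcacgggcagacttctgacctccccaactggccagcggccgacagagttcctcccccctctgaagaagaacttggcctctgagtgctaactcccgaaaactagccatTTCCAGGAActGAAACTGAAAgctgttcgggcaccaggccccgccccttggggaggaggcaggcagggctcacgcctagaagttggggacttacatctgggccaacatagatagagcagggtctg
*Gbp7*, chr3:142530086-142530385, plus strand: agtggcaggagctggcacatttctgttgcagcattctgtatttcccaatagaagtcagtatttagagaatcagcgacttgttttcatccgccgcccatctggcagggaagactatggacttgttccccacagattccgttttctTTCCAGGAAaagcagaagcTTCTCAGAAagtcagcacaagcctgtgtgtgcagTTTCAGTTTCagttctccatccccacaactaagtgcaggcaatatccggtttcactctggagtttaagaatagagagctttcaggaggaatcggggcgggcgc
In *Igtp* and *Irgm2* the motifs stand next to each other, and since both genes belong to a family of close relatives, reads may have been divided between relatives. The windows of *Igtp* and *Irgm2* also share long stretches of sequence, so the promoters of the list are not independent of each other. The genes were listed as induced by interferon-gamma, and the motif counts are a description of that list. A match to these letters is a description and not a measured binding site.

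Genes of antigen presentation, macrophages and complement were also highest in T1D mouse 1. For MHC class II, *Cd74* (16149), the invariant chain, was at 1133, 88.1 and 46.9 CPM in T1D mice and 60.8, 60.1 and 158 CPM in Lira mice and *H2-Aa* (14960) at 521, 39.8 and 18.5 CPM in T1D mice and 21.3, 21.1 and 59.6 CPM in Lira mice. Apart from T1D mouse 1, the highest value of both genes was that of Lira mouse 3. The MHC class II list had a median of -1.61, which turned to 0.44 without T1D mouse 1. Macrophage and monocyte genes had 21 of 27 members lower and a median of -1.04, turning to 0.20. *Lyz2* (17105), lysozyme of myeloid cells, was at 1141, 44.3 and 125 CPM in T1D mice and 79.2, 48.9 and 433 CPM in Lira mice, and *C1qa* (12259), a chain of the complement starter C1q made by macrophages, was at 229, 14.4 and 17.3 CPM in T1D mice and 13.1, 16.2 and 22.4 CPM in Lira mice. *Axl* (26362), a receptor for dying cells, was the only macrophage gene that parted the groups (3.7% of the list, near the 3.40% of all tested genes), at 99.5, 56.2 and 60.9 CPM in T1D mice and 44, 50 and 44.3 CPM in Lira mice (-0.65, SE 0.28, -0.35 without T1D mouse 1). Complement had 20 of 22 members lower and 7 at an unadjusted p under 0.05 (31.8%, against 1.78% of all tested genes), and its median of -1.27 became 0.05. *C2* (12263) was at 13.9, 4.65 and 3.2 CPM in T1D mice and 2.5, 2.88 and 1.03 CPM in Lira mice, the only separation in this list (4.55%, near the 3.40% of all tested genes), and stayed lower without T1D mouse 1 (-0.88). The adipsin gene *Cfd* and the C1 inhibitor gene *Serping1* were at -1.51 and -1.37, and at -0.11 and -0.30 without that mouse.

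For the type I interferon and inflammation lists the direction also depended on T1D mouse 1. The type I interferon list had a median of -0.26 with all libraries and of 0.67 without T1D mouse 1, and acute inflammation one of -0.36 and 0.51. *Bst2* and *Ifi27l2a*, both induced by interferon, had log2 fold changes of -1.03 and -1.52, and of 0.54 and -0.29 without that mouse. The acute phase genes *Hp* and *Lcn2* were at -0.60 and 1.12 on this scale, and changed direction without T1D mouse 1 (0.92) and Lira mouse 3 (-0.83). Chemokines and their receptors were lower in 22 of 27 cases, 5 of them at an unadjusted p under 0.05 (18.5%, against 1.78% of all tested genes), *Ccl8*, *Cxcl9*, *Cxcl16* and *Ackr3* among them. Their median of -0.46 kept its sign but shrank to -0.01 without T1D mouse 1. *Ackr3* (12778), a scavenging receptor for CXCL12, was at 52.7, 32.1 and 26.4 CPM in T1D mice and 21.7, 26.2 and 15.4 CPM in Lira mice. It was the only member that parted the groups (3.7%, near the 3.40% of all tested genes), and its log2 fold change of -0.81 (SE 0.31) was -1.01 to -0.47 in the refits. *Cxcl12* itself, the chemokine that holds blood stem cells in the marrow, was at 169, 165 and 147 CPM in T1D mice and 124, 127 and 179 CPM in Lira mice, and *Ccl21a* at -1.45 on the log2 scale, or -0.42 without T1D mouse 1.

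Genes of bone-forming cells were higher in T1D mouse 1 as well. *Col1a1* (12842), the main collagen of bone, was at 3208, 333 and 331 CPM in T1D mice and 412, 193 and 618 CPM in Lira mice, and *Sparc* (20692), which encodes osteonectin, at 1469, 443 and 281 CPM in T1D mice and 414, 287 and 368 CPM in Lira mice. Without T1D mouse 1 the log2 fold change of *Col1a1* turned from -1.66 to 0.29, and that of *Sparc* shrank from -1.04 to -0.02. All 22 genes of osteoblasts and mineralization were lower in Lira mice with all libraries, 7 of them in all 6 refits, and the median went from -1.11 to 0.14 without T1D mouse 1. In the osteocyte list (13 of 15 lower, median -0.40, 0.06 without that mouse) the potassium channel *Kcnk2* parted the groups (-0.71, SE 0.40) besides *Ackr3*, together 13.3% of the list against 3.40% of all tested genes, and *Cd44* was at -1.13. Cartilage had a median of -0.45, which turned to 0.53 without T1D mouse 1 and dropped to -1.42 without Lira mouse 1. For the joint lubricin *Prg4* (96875) the values were 1329, 218 and 54.2 CPM in T1D and 568, 52.6 and 61.7 CPM in Lira mice, mouse 1 being highest in each group, and *Chad* was at 0.51.

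Tendon, periosteum and fibroblast genes were lower in 22 of 22 cases, and their median kept its sign, though it went from -0.90 to -0.09 without T1D mouse 1. *Lum* (17022), the collagen-binding proteoglycan lumican, was at 284, 47.8 and 55.6 CPM in T1D mice and 24, 36.1 and 38.9 CPM in Lira mice, and *Dcn* (13179), decorin, at 1234, 622 and 476 CPM in T1D mice and 489, 503 and 279 CPM in Lira mice. *Lum* parted the groups and stayed lower without T1D mouse 1 (-0.65), as did *Dcn* (-0.37), whereas *Ly6a* turned from -1.15 to 0.39. Adipocyte genes (16 of 21 lower) had a median of -0.63, or -0.02 without this mouse. *Aqp7* (11832), the glycerol channel of fat cells, was at 13.4, 13.4 and 10.5 CPM in T1D mice and 6, 10.3 and 7.46 CPM in Lira mice and parted the groups by a small margin (-0.65, SE 0.24). *Car3* (12350), abundant in both fat and muscle, was at 3675, 7098 and 7075 CPM in T1D mice and 3816, 4184 and 2952 CPM in Lira mice, where T1D mice 2 and 3 were high and T1D mouse 1 was not. *Fabp4* was at -0.55, or -0.17 without T1D mouse 1. In the CXCL12-abundant stromal cells of the marrow, *Foxc1* (17300), a factor these cells need, was at 9.4, 13.4 and 4.87 CPM in T1D mice and 4.5, 1.95 and 4.13 CPM in Lira mice (-1.38, SE 0.50), while *Lpl* (0.34) and *Igfbp5* (0.09) overlapped and the list had a median of -0.16 (-0.36 to -0.07).

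The osteoclast list, from the cells that resorb bone, rested on both outlying mice. Its 18 tested members had a median of -0.57, 0.02 without T1D mouse 1 and -1.44 without Lira mouse 3. *Ctsk* (13038), the collagen-degrading protease of osteoclasts, was at 117, 32.7 and 72.9 CPM in T1D mice and 34, 5.06 and 47.5 CPM in Lira mice. *Acp5* (11433), tartrate-resistant acid phosphatase, was at 109.7, 26.9 and 89.2 CPM in T1D mice and 34.4, 3.97 and 62.9 CPM in Lira mice. In both genes T1D mice 1 and 3 were highest, Lira mouse 2 was lowest and the groups overlapped, with log2 fold changes of -1.36 (SE 0.93) and -1.16 (SE 1.02) that stayed negative in all refits, at -1.92 to -0.86 and -1.97 to -0.63. *Trem2* (83433), the myeloid receptor of lipids on the RT-qPCR list, was at 22.2, 1.31 and 0.867 CPM in T1D mice and 1.07, 0.389 and 2.01 CPM in Lira mice. Only T1D mouse 1 was above the other mice, the log2 fold change was -2.79 (SE 1.30) with it and 0.10 without it. The receptor for RANK ligand, *Tnfrsf11a* (21934), was at 7.67, 2.1 and 2.67 CPM in T1D mice and 1.64, 0.935 and 1.95 CPM in Lira mice and parted the groups (-1.45, SE 0.62, -0.65 without T1D mouse 1). *Nfatc1* (18018), the master transcription factor of osteoclasts, was at 63.4, 63.2 and 73.5 CPM in T1D mice and 68.2, 95.2 and 75.3 CPM in Lira mice, with overlapping groups, a log2 fold change of 0.25 (SE 0.17) and the same direction in each refit (0.11 to 0.35). *Ostm1* (14628), a partner of the lysosomal chloride transporter, was the one member higher in every Lira mouse, at 26.5, 27.3 and 26.6 CPM in T1D mice and 32.3, 40.3 and 31.6 CPM in Lira mice. Together with *Tnfrsf11a* this made 1 member without overlap in each direction (5.56%, against 3.74% higher and 3.40% lower among all tested genes). *Car2* and *Tyrobp*, shared with erythroid and myeloid cells, were at 0.98 and -0.40.

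Of the remaining genes on the RT-qPCR list, *Tnf* (2.34, 0 and 0.467 CPM in T1D, 0.428, 0.0779 and 0.918 CPM in Lira mice) and *Tnfsf11*, RANK ligand (1.69, 0.393 and 0.6 CPM in T1D and 0.5, 0 and 0.344 CPM in Lira mice), were low, with T1D mouse 1 highest, and *Tnfsf11* did not pass the filter. *Fos*, a partner of NFATc1, was at 19, 10.4 and 6.74 CPM in T1D mice and 8.14, 7.32 and 16.6 CPM in Lira mice, and *Tnfrsf11b*, the decoy receptor osteoprotegerin, at 5.06, 1.51 and 0.667 CPM in T1D mice and 3, 1.09 and 3.1 CPM in Lira mice. Their groups overlapped, with log2 fold changes of -0.17 (SE 0.47) and -0.01 (SE 0.98). The 7 tested RT-qPCR genes had a median of -0.95 with all libraries and 0.22 without T1D mouse 1. They were picked for RT-qPCR with these samples known and are not independent evidence of a direction.

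Genes of the marrow were highest in Lira mouse 3. Genes of red cell precursors took 0.297, 0.113 and 1.87% of the counts in T1D mice and 0.466, 0.141 and 3.52% in Lira mice, and genes of neutrophils 0.211, 0.0107 and 0.170% of the counts in T1D mice and 0.0932, 0.0142 and 0.719% in Lira mice. *Hba-a1* (15122), an alpha globin, was at 697, 166 and 7085 CPM in T1D mice and 1542, 297 and 10702 CPM in Lira mice, and *S100a8* (20201), an alarmin of neutrophils, at 153, 7.07 and 150.1 CPM in T1D mice and 78.9, 13.6 and 629 CPM in Lira mice. Lira mouse 3 was highest and T1D mouse 2 and Lira mouse 2 were lowest for both. The erythroid list had 23 of 24 members higher and a median of 0.80. Without Lira mouse 3 this was -1.10 and without T1D mouse 3, the T1D mouse with the most globin, 3.16. Neutrophils had 23 of 24 higher, with medians of 1.08 and -1.08 without Lira mouse 3. None of the genes of either list kept its direction in all 6 refits. *Hba-a1* and *Hba-a2* (0.49) are near-identical copies whose counts are uncertain singly, and *S100a9* was at 1.06.

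The mean levels of the B cell, megakaryocyte and platelet, and cell cycle lists were also highest in Lira mouse 3. *Cd79a* (12518), a chain of the B cell receptor, was at 10, 7.33 and 9 CPM in T1D mice and 12.8, 2.49 and 86.8 CPM in Lira mice, and the B cell list had 20 of 21 members higher, with a median of 1.61 that turned to -0.27 without Lira mouse 3. *Ebf1*, which marrow stroma also expresses, was at -0.23. *Gp1ba* (14723), a platelet adhesion receptor, was at 4.02, 3.21 and 4.27 CPM in T1D mice and 5.35, 4.98 and 22.6 CPM in Lira mice, so all Lira mice were above all T1D mice but Lira mice 1 and 2 by little, and the log2 fold change of 1.52 (SE 0.61) was 0.43 without Lira mouse 3. *Ppbp* and *Pf4*, chemokines of platelets, were at 1.70 and 0.71, and the megakaryocyte list went from 1.44 to -0.97 without Lira mouse 3. In the cell cycle list 29 of 30 genes were higher, and the median went from 0.98 to -0.72. *Pcna* (18538), the clamp of DNA replication, was at 37, 27.8 and 52.2 CPM in T1D mice and 44.3, 23.9 and 109.5 CPM in Lira mice and *Birc5* at 0.76. T and NK cell genes had a median of -0.0016, between -1.65 and 0.97 in the refits, with *Nkg7* at 0.77 and *Ccl5* at -2.33. Plasma cell genes had a median of -0.45, which was 0.01 without T1D mouse 1. *Sdc1* (20969), syndecan-1, was at 14.9, 6.55 and 6.27 CPM in T1D mice and 3.35, 2.57 and 5.51 CPM in Lira mice without overlap (-1.27, SE 0.46, -0.74 without T1D mouse 1), while *Xbp1* (-0.15) and *Txndc5* (-0.15) overlapped. *Sdc1* made 1 of 9 tested members without overlap (11.1%, against 3.40% of all tested genes).

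The mast cell proteases *Mcpt4* and *Tpsb2* did not follow Lira mouse 3. The connective tissue mast cell proteases *Mcpt4* (17227), at 2.66, 5.5 and 3.27 CPM in T1D mice and 1.71, 2.49 and 1.26 CPM in Lira mice, and *Tpsb2* (17229), at 2.72, 3.8 and 2.87 CPM in T1D mice and 1.86, 2.34 and 0.804 CPM in Lira mice, were lower in every Lira mouse, and the refits gave -1.35 to -0.71 for *Mcpt4* and -1.24 to -0.58 for *Tpsb2*. The basophil protease *Prss34* (328780) was at 5.71, 0.131 and 4.87 CPM in T1D mice and 2.93, 0.312 and 18.6 CPM in Lira mice and followed the marrow instead, with Lira mouse 3 highest. Together with *Gata2* (0.22) the list had 6 of 9 members higher, a median of 0.20 and one of -0.78 without Lira mouse 3. *Mcpt4* and *Tpsb2* were its 2 members without overlap (22.2%, against 3.40% of all tested genes), and they are named for that separation. Both proteases are counted from levels of a few CPM.

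Myelin genes were lower in Lira mice, chiefly through T1D mouse 2. *Pmp22* (18858), a myelin protein that fibroblasts express too, was at 86.3, 250.4 and 46 CPM in T1D mice and 44.2, 43.1 and 28.4 CPM in Lira mice and parted the groups (-1.73, SE 0.63, -0.79 without T1D mouse 2). Of 23 tested genes 22 were lower, 7 at an unadjusted p under 0.05 (30.4%, against 1.78% of all tested genes) and 5 without overlap (21.7%, against 3.40%), namely *Gpm6b*, *Pmp22*, *S100b*, *Gldn* and *Dhh*. The median of -1.94 kept its sign in all refits and was -0.24 without T1D mouse 2. The list took 0.0250, 0.131 and 0.0230% of the counts in T1D mice and 0.0180, 0.0166 and 0.0137% in Lira mice. The mean log2(CPM + 1) of its members was 2.07, 4.54 and 2.67 in T1D mice and 2.43, 2.27 and 1.81 in Lira mice. By this level T1D mouse 1 lay below Lira mice 1 and 2, so the mean levels did not separate the groups. *Gpm6b* was highest in T1D mouse 1, whereas the share of the list was highest in T1D mouse 2. It is also among the genes chosen above for groups that did not overlap, and it counts in the shares of this list.

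Neuromuscular and vascular genes had medians closer to 0. In the list of the neuromuscular junction and denervation 13 of 20 members were lower (median -0.16, refits -0.35 to -0.04). *Colq* (382864), which anchors acetylcholinesterase at the synapse, was at 15.5, 13.2 and 11.7 CPM in T1D mice and 8.28, 9.74 and 6.43 CPM in Lira mice without overlap (-0.73, SE 0.39), *Ankrd1* was at -1.05, or 0.00 without T1D mouse 1, and *Gadd45a* at 0.02. Smooth muscle and pericyte genes had a median of -0.04 (refits -0.26 to 0.10), with 8 of 16 members higher. In this list 3 members had no overlap, all of them lower (18.75%, against 3.40% of all tested genes). An unadjusted p under 0.05 was reached by 2 members, both lower (12.5%, against 1.78%). *Tagln* (21345), the actin-binding protein SM22 of smooth muscle, was at 34.4, 46.2 and 31.5 CPM in T1D mice and 21.8, 27.7 and 20.9 CPM in Lira mice, lower in every Lira mouse (-0.67, SE 0.23). *Des* and *Tpm2*, also muscle fiber genes, were at -0.10 and 0.23. Endothelial genes had 15 of 23 members higher and a median of 0.13 (-0.08 to 0.28), with *Pecam1* at 0.23, and the VEGF receptor *Flt1* was the only member with an unadjusted p under 0.05 (4.35%, against 1.55% of all tested genes). *Gys1*, *Klhl38*, *Flt1*, *Ccl8*, *Cxcl9*, *Cxcl16*, *S100b*, *Gldn*, *Dhh*, *Irgm2* and *Gbp7* were named after their values were seen.

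The target of the drug was not detectable at this depth in these tibias. *Glp1r* had a count of 0 in all 6 libraries, which allows up to 0.163 to 0.234 CPM depending on the library, and *Glp2r* and *Gcgr* had at most 8 and 4 counts in a library. *Gipr* (381853), the receptor of the other incretin, was at 1.85, 1.83 and 1.73 CPM in T1D mice and 1.28, 1.48 and 0.976 CPM in Lira mice, lower in every Lira mouse by a log2 fold change of -0.53 (SE 0.39). Of the 11 tested incretin and calcium hormone receptor genes 6 were lower, with a median of -0.04 (refits -0.29 to 0.12), and besides *Calcrl* and *Gipr* (18.2%, against 3.40% of all tested genes) all overlapped. *Calcrl* partners *Ramp1*, *Ramp2* and *Ramp3* were at 0.05, -0.21 and 0.31, each with overlapping groups. The parathyroid hormone receptor *Pth1r* was at 30.1, 4.12 and 6.47 CPM in T1D mice and 6.49, 2.57 and 9.82 CPM in Lira mice, with T1D mouse 1 highest as for osteoblasts, the calcium-sensing receptor *Casr* at 0.34, the vitamin D receptor *Vdr* at -0.04, the calcitonin receptor *Calcr* at -0.25 and *Dpp4*, the protease that inactivates GLP-1, at 0.15.

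**Figure D5:**
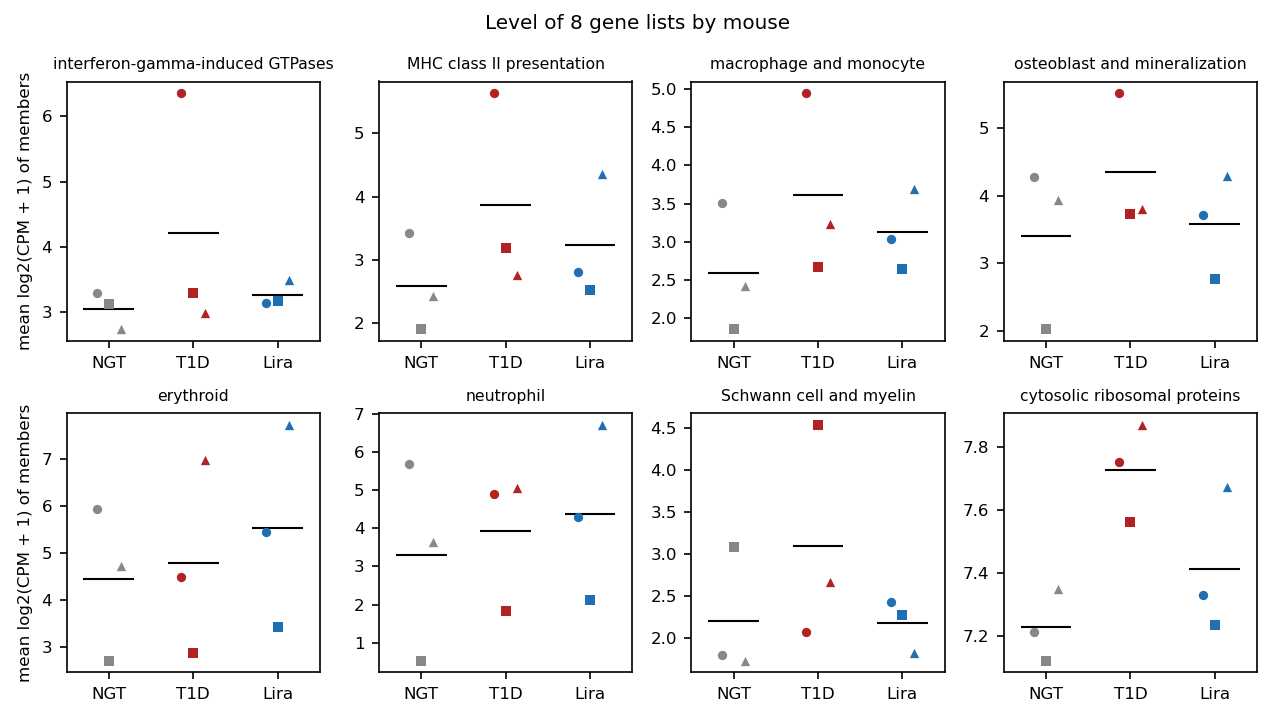
Level of 8 gene lists (y axis, the mean log2(CPM + 1) of the tested members) by group (x axis). Circles, squares and triangles are mice 1, 2 and 3, and the line is the group mean. T1D mouse 1 stands alone in the interferon-gamma list, T1D mouse 2 in the myelin list and Lira mouse 3 is highest in the erythroid and neutrophil lists, whereas the ribosomal protein list is shifted in Lira mice 1 and 2.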

How the data were processed

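Total RNA of 9 tibias, 3 each from NGT, T1D and Lira mice, was sequenced by the authors, who mapped clean reads to the genome of the mouse. They deposited estimated read counts and FPKM (reads scaled to gene length and library size) for each gene and library. The labels list the build mm9, and the aligner, counter and strand setting are not given in the sources used here. Of the deposited estimated counts, 30.2% were not whole, and they were rounded. The FPKM values deposited by the authors served only to rank the members of a gene list by abundance. Library totals were 13086373 to 16528394 counts.

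Genes that reached 10 counts in 3 or more libraries were tested with the quasi-likelihood test of edgeR 4.0.16 in R 4.3.3 (TMM scaling, 3 group means fitted to all 9 libraries, contrast Lira minus T1D, Benjamini-Hochberg adjustment over all tested genes). The biological coefficient of variation was 0.433. CPM are counts scaled to the TMM-adjusted total of the tested genes. DEGs needed an adjusted p under 0.05 and a fold change over 2, the cutoffs of the study, whose own test was ANOVA. Replicates are separate mice. The alternatives were DESeq2 1.42.0, limma 3.58.1 (voom with sample weights), library size scaling, no filter, the 2 groups alone, a block for the replicate number, and leaving out each T1D or Lira library. The fit was tested on simulated data.

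Named genes were the 8 with the lowest p in each direction among genes of at least 5 CPM without overlap between the groups, the 2 most abundant members of each gene list, up to 2 members a direction without overlap and of at least 2 CPM, genes called by any test, and the RT-qPCR and receptor genes. A few genes that this rule names are not reported here. The members and lists were chosen with earlier results of these data known. Promoters were matched by gene ID to RefSeq (GRCm38.p6), and no other coordinates are given because the builds differ.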

Additional observations from a re-analysis of the deposited data

How the results depend on the processing

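No DEG was called by edgeR or limma-voom under any alternative run, and DESeq2 called 1. The number of genes with an unadjusted p under 0.05 that were higher in Lira mice, 216 with all libraries, was 138 with library size scaling, 123 with the T1D and Lira libraries alone and 390 with limma-voom and sample weights. With 1 library left out it was 133 to 467, and for lower genes 109 to 459. The study describes no pairing of T1D and Lira mice by replicate number. The correlations of the same-numbered deviations from the group means were -0.244, 0.615 and 0.271. T1D mouse 1, Lira mouse 1 and Lira mouse 3 correlated best with another number. With 3 mice a group these correlations cannot decide whether mice were paired. With a replicate block edgeR called 0 DEGs, and 263 genes were higher and 244 lower at an unadjusted p under 0.05. Under the replicate block the median moved by more than the spread between mice (1 SD) for RT-qPCR genes of the study (-0.0862). The median crossed 0 with a shift within that spread for fatty acid and triglyceride synthesis (0.24), and 20 of the 50 medians kept their sign but moved by over 1.5 times. Under the same block the direction changed for *Acta1* (0.0241), *Scd1* (1.47) and *Tnfrsf11b* (0.36). Leaving out T1D mouse 1 and Lira mouse 3 together, an alternative chosen after seeing the data, moved by more than that spread the median log2 fold change of fatty acid and triglyceride synthesis (0.75), polyol and glycation (-0.15), cartilage (0.70), adipocyte (0.0127), erythroid (-1.50), B cell (-0.0818), T and NK cell (-0.83), mast cell and basophil (-0.34), megakaryocyte and platelet (-0.83), interferon-gamma-induced GTPases (-0.0109), complement (-0.0998), cell cycle (-0.78) and RT-qPCR genes of the study (-0.15). The median crossed 0 with a shift within that spread for cholesterol synthesis (0.0485), heat shock and chaperones (0.21), incretin and calcium hormone receptors (0.0358), skeletal muscle, fast fiber (-0.0651), skeletal muscle, slow and oxidative fiber (0.21), neutrophil (-0.77), smooth muscle and pericyte (0.13), type I interferon response (0.16), AP-1 and immediate-early (-0.0489) and proteasome subunits (0.0115), and 23 of the 50 medians kept their sign but moved by over 1.5 times. The same alternative turned the direction of *Acta1* (0.0252), *Ankrd1* (0.32), *Atf5* (0.25), *Birc5* (-1.96), *Bst2* (0.12), *Car2* (-1.36), *Cd79a* (-0.0818), *Cryab* (0.73), *Ebf1* (0.12), *Gadd45a* (-0.50), *Hadhb* (0.0552), *Hba-a1* (-1.98), *Hba-a2* (-2.27), *Irgm2* (0.0924), *Lcn2* (-0.26), *Ly6a* (0.49), *Nkg7* (-1.02), *Park7* (-0.0236), *Pcna* (-0.23), *Pf4* (-0.90), *Ppbp* (-0.68), *Prg4* (1.20), *Prss34* (-0.61), *Ramp2* (0.34), *S100a8* (-0.76), *S100a9* (-0.78), *Scd1* (1.58), *Tnf* (0.14), *Tnfrsf11b* (0.92), *Tnnt3* (-0.0474), *Txndc5* (0.0635) and *Xbp1* (0.0397). Limma-voom with sample weights moved by more than that spread the median of adipocyte (-0.0805), B cell (0.50), interferon-gamma-induced GTPases (-0.27), complement (-0.35) and RT-qPCR genes of the study (-0.0121). The median crossed 0 with a shift within that spread for fatty acid and triglyceride synthesis (0.50), polyol and glycation (-0.11), heat shock and chaperones (0.15), skeletal muscle, fast fiber (-0.0383), skeletal muscle, slow and oxidative fiber (0.24), cartilage (0.33), type I interferon response (0.13) and proteasome subunits (0.0232), and 27 of the 50 medians kept their sign but moved by over 1.5 times. Limma-voom turned the direction of *Ankrd1* (0.42), *Atf5* (0.15), *Birc5* (-0.34), *Cryab* (0.45), *Dpp4* (-0.00880), *Ebf1* (0.0494), *Gadd45a* (-0.15), *Gapdh* (-0.00406), *Hba-a2* (-0.0454), *Hibadh* (-0.0190), *Hp* (0.0813), *Igfbp5* (-0.27), *Ly6a* (0.20), *Park7* (-0.0276), *Pf4* (-0.16), *Prg4* (0.81), *Ramp2* (0.24), *Scd1* (2.32), *Tnf* (0.98), *Tnfrsf11b* (1.01), *Tnnt3* (-0.0162) and *Xbp1* (0.0210). Library size scaling moved by more than that spread the median of proteasome subunits (-0.11). The median crossed 0 with a shift within that spread for glucose uptake and insulin signaling (-0.0383), polyol and glycation (-0.0565) and AP-1 and immediate-early (-0.10), and 18 of the 50 medians kept their sign but moved by over 1.5 times. Library size scaling turned the direction of *Atf4* (-0.0456), *Fdft1* (-0.0727), *Fdps* (-0.0972), *Gapdh* (-0.0207), *Hibadh* (-0.0653), *Hspb6* (-0.00257), *Igfbp5* (-0.0232), *Park7* (-0.0753), *Ramp1* (-0.0635) and *Tnnt3* (-0.00941). Without the filter on low counts the median crossed 0 within that spread for incretin and calcium hormone receptors (0.0291), T and NK cell (0.12) and proteasome subunits (0.0171), and 3 others moved by over 1.5 times. With DESeq2 the median crossed 0 within that spread for polyol and glycation (-0.00140), and 2 others moved by over 1.5 times. With the edgeR robust option or the T1D and Lira libraries alone 0 medians crossed 0. With 1 library left out, list medians that moved by more than the spread between mice ranged from 0.0180 to 0.30 for glycolysis, 0.0564 to 0.33 for glycogen, -0.50 to 0.77 for fatty acid and triglyceride synthesis, -0.0914 to 0.13 for glucose uptake and insulin signaling, -0.15 to 0.16 for polyol and glycation, -0.13 to 0.58 for glucocorticoid-induced and metallothionein, -0.41 to 0.16 for circadian clock, -0.29 to 0.12 for incretin and calcium hormone receptors, -0.35 to -0.0427 for neuromuscular junction and denervation, -1.69 to 0.14 for osteoblast and mineralization, -0.74 to 0.0615 for osteocyte, -1.44 to 0.0185 for osteoclast, -1.42 to 0.53 for cartilage, -1.12 to -0.0922 for tendon, periosteum and fibroblast, -0.76 to -0.0204 for adipocyte, -1.10 to 3.16 for erythroid, -1.08 to 1.64 for neutrophil, -0.27 to 2.16 for B cell, -1.65 to 0.97 for T and NK cell, -1.51 to 0.20 for macrophage and monocyte, -0.78 to 0.35 for mast cell and basophil, -0.97 to 1.92 for megakaryocyte and platelet, -0.0777 to 0.28 for endothelial, -2.39 to -0.24 for Schwann cell and myelin, -0.62 to 0.67 for type I interferon response, -2.42 to 0.17 for interferon-gamma-induced GTPases, -2.68 to 0.44 for MHC class II presentation, -1.66 to 0.0477 for complement, -0.82 to 0.51 for acute inflammation, -0.72 to 1.86 for cell cycle and -1.85 to 0.22 for RT-qPCR genes of the study. Single genes whose direction changed when 1 library was left out ranged from -0.45 to 0.15 for *Acadl*, -0.19 to 0.32 for *Acta1*, -0.00336 to 0.38 for *Aldh6a1*, -0.15 to 0.31 for *Aldoa*, -0.12 to 0.15 for *Atf4*, -0.46 to 0.21 for *Atf5*, -1.66 to 2.27 for *Birc5*, -1.45 to 0.54 for *Bst2*, -2.85 to 0.12 for *C1qa*, -0.76 to 0.0360 for *Calcr*, -1.01 to 2.73 for *Car2*, -0.0416 to 1.31 for *Casr*, -4.21 to 1.63 for *Ccl5*, -2.49 to 0.0906 for *Cd44*, -2.81 to 0.46 for *Cd74*, -0.19 to 2.50 for *Cd79a*, -0.0862 to 2.32 for *Chad*, -2.13 to 0.29 for *Col1a1*, -0.12 to 0.34 for *Cox6a2*, -0.74 to 0.60 for *Cryab*, -0.18 to 0.0160 for *Des*, -0.0919 to 0.36 for *Dpp4*, -0.42 to 0.21 for *Ebf1*, -0.55 to 0.0710 for *Fabp3*, -0.21 to 0.39 for *Fdft1*, -0.0677 to 0.17 for *Fdps*, -0.64 to 0.32 for *Fos*, -0.27 to 0.47 for *Gadd45a*, -0.17 to 0.36 for *Gapdh*, -3.18 to 0.23 for *H2-Aa*, -0.26 to 0.20 for *Hadhb*, -1.53 to 3.28 for *Hba-a1*, -1.82 to 3.16 for *Hba-a2*, -0.17 to 0.22 for *Hibadh*, -1.63 to 0.92 for *Hp*, -0.0949 to 0.64 for *Hspb6*, -0.27 to 0.39 for *Igfbp5*, -3.53 to 0.28 for *Igtp*, -2.97 to 0.18 for *Irgm2*, -0.83 to 1.69 for *Lcn2*, -1.61 to 0.39 for *Ly6a*, -2.77 to 1.15 for *Lyz2*, -0.15 to 1.32 for *Mt1*, -1.65 to 1.40 for *Nkg7*, -0.32 to 0.20 for *Nr1d1*, -0.14 to 0.14 for *Park7*, -0.19 to 0.98 for *Pcna*, -0.16 to 1.99 for *Pdk4*, -1.44 to 1.26 for *Pf4*, -1.08 to 2.27 for *Ppbp*, -3.22 to 0.74 for *Prg4*, -1.13 to 1.59 for *Prss34*, -0.15 to 0.0905 for *Psmb7*, -1.58 to 0.25 for *Pth1r*, -0.0520 to 0.60 for *Pygm*, -0.16 to 0.22 for *Ramp1*, -0.48 to 0.21 for *Ramp2*, -0.55 to 0.90 for *Ramp3*, -1.16 to 1.77 for *S100a8*, -1.16 to 1.62 for *S100a9*, -0.85 to 1.86 for *Scd1*, -0.0841 to 0.37 for *Sqstm1*, -1.85 to 1.04 for *Tnf*, -0.45 to 1.14 for *Tnfrsf11b*, -0.28 to 0.28 for *Tnnt3*, -0.11 to 0.44 for *Tpm2*, -3.46 to 0.0994 for *Trem2*, -0.28 to 0.13 for *Txndc5*, -1.91 to 1.01 for *Tyrobp* and -0.96 to 0.61 for *Vdr*. The causes were not tested. Depth limits genes of a few CPM, and with 3 mice a group the exact permutation test cannot go below p = 0.1.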

Other observations

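Some members of the gene lists did not pass the filter on low counts, which needed 10 counts in 3 or more of the 9 libraries, and those with over 50 counts in a T1D or Lira library are given here as counts. They were chosen after their values were seen. *Saa3*, a serum amyloid A gene of the acute phase, had 682 counts in T1D mouse 1 and 0 to 3 in the other 5 T1D and Lira libraries. *Cxcl10*, a chemokine induced by interferon-gamma, had 365 counts in T1D mouse 1 and 1 to 7 in the others. The monocyte chemokines *Ccl2* and *Ccl7* had 135 and 120 counts in T1D mouse 1, 25 and 31 in T1D mouse 2, 7 and 2 in T1D mouse 3, and 0 to 4 in Lira mice. *Ccl17* was highest in T1D mouse 2, at 137 counts, with 26 in T1D mouse 1, 0 in T1D mouse 3 and 0 to 4 in Lira mice. *Ccl12*, *Ccl22* and the neutrophil chemokine *Cxcl1* had 52, 52 and 79 counts in T1D mouse 1 and 0 to 5 in the others. *Ifng*, the gene of interferon-gamma itself, is given in addition and had 11 counts in T1D mouse 1 and 0 or 1 in the other 5 libraries. None of these genes was tested.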
